A study of Mus musculus with 3 samples.

Results

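Of the 22954 genes in the deposited tables, 9 were followed here, the chemokine receptor genes Ccr1, Ccr2, Ccr7, Cx3cr1, Cxcr2, Cxcr3, Cxcr4, Cxcr5 and Cxcr6. The list was set by name, with earlier results of these data known, and all 9 were found in every library. Droplet single-cell RNA sequencing of dissociated lung was performed on 3 female C57BL/6J mice, 5 months after 13 Gy to the whole thorax. The CONV mouse received conventional dose-rate radiotherapy, the FLASH mouse received the same dose at ultra-high dose rate, and the CONV AsiDNA mouse received conventional radiotherapy with AsiDNA, a short double-stranded DNA that acts as a decoy for DNA break signalling, at 100 mg/kg on each of 2 earlier days and 200 mg/kg on the day of irradiation. All 3 animals were labelled WT and all were irradiated; non-irradiated lungs were not analysed here. Each condition is therefore 1 mouse and 1 library, the spread between animals is unknown, and no test between conditions was possible.

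Chemokine receptors are seven-transmembrane G protein-coupled receptors through which leukocytes follow gradients of small secreted proteins. Each leukocyte type carries its own set, so that monocytes enter inflamed tissue through Ccr2, neutrophils leave marrow through Cxcr2 and are held there through Cxcr4, naive lymphocytes and mature dendritic cells home to lymph nodes through Ccr7, and resident T cells and innate lymphocytes keep Cxcr6. In the lung these receptors also mark patrolling monocytes and interstitial macrophages (Cx3cr1), macrophages and neutrophils (Ccr1), effector T cells (Cxcr3) and follicular B cells (Cxcr5).

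Each value in the tables was a natural logarithm, of 1 plus a whole number. That number is called an adjusted count here, because no source at hand says how it was derived from the reads. The median cell held 3450 of them in CONV, 3678 with AsiDNA and 3621 after FLASH. After 3 cells were removed, 6371 CONV, 6981 CONV AsiDNA and 6267 FLASH cells remained. Cells were put into 26 classes by marker genes that held no chemokine receptor or ligand, and 98.9% of cells received a class. The share of cells above 0 is given with its exact 95% binomial interval, which covers the sampling of cells and not of mice, and the level is the class's summed adjusted counts per 1000000 (CPM). Where 3 values follow each other they are those of CONV, CONV AsiDNA and FLASH, in that order. Ptprc, the pan-leukocyte gene, was above 0 in 67.9%, 67.5% and 66.7% of cells, and the epithelial, endothelial and fibroblast genes Sftpc, Pecam1 and Col1a2 were present in every library. A pair of features of the CONV library touch results given further on. Only 18 classical monocyte-like cells and 47 Treml4 monocyte-like cells were found in it, against 88 and 238 in CONV AsiDNA and 64 and 340 in FLASH. In addition, 54 of its 101 cDC1-like cells lay in a cluster led by Gpnmb and named AM-like, for alveolar macrophages.

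Of the 9 receptor genes, 7 had an entry in the RefSeq promoter table used here (build GRCm38.p6); Ccr7 and Cxcr5 are named only. The 250 bases before the start are printed for 3 of them because Cxcr4 was found in the most classes and Cxcr6 and Cxcr3 mark lymphocytes. Capitals mark 3 motifs, searched on both strands. The GC box was taken as GGGCGG, which reads CCGCCC on the other strand. The TATA box was taken as TATAAA, or TTTATA on the other strand. The core bound by Runx factors was taken as TGTGGT, or ACCACA on the other strand.
Cxcr4, chr1:128592300-128592549, minus strand: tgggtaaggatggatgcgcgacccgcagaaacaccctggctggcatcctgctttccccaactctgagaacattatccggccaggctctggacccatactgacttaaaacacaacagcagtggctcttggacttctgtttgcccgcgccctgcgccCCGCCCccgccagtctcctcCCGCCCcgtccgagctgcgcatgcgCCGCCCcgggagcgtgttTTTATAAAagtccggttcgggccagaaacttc
Cxcr6, chr9:123806227-123806476, plus strand: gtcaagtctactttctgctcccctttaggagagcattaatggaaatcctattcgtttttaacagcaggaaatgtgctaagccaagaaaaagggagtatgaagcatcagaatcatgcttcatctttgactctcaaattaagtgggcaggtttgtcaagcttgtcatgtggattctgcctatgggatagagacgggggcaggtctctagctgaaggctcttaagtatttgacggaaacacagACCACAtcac
Cxcr3, chrX:101734148-101734397, minus strand: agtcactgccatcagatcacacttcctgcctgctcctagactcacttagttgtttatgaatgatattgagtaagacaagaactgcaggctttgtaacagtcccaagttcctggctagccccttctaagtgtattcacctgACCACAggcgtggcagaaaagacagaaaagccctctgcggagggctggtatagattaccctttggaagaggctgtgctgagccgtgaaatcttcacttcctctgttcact
The Cxcr4 window was 61.2% G and C and held 3 GC boxes, which begin 95, 75 and 50 bases before the start, and a TATA box on both strands, overlapping itself, at 30 and 32 bases before it. The Cxcr6 and Cxcr3 windows were 43.6% and 48.0% G and C, and each held the Runx core a single time, 10 and 110 bases before the start. Among 32851 promoter windows of the same length, 32.7% held a GC box, 12.4% a TATA box and 14.0% the Runx core, and the median G and C content was 52.4%. The Runx core was also found in the Ccr1 and Cx3cr1 windows, whereas the Ccr2 and Cxcr2 windows held none of the 3 motifs; a match is a run of letters and not a measured binding site.

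In GENCODE vM21 (GRCm38), 5 receptor genes lie on chromosome 9: Cxcr5 (44511787 to 44561877, minus strand), Cx3cr1 (119901616 to 120069879, minus), Cxcr6 (123806475 to 123811760, plus), Ccr1 (123962124 to 123968692, minus) and Ccr2 (124101950 to 124113557, plus), of which the last 3 are near neighbours. Cxcr2 (74153989 to 74161246, plus) and Cxcr4 (128588199 to 128592293, minus) lie on chromosome 1, Ccr7 (99144196 to 99155077, minus) on chromosome 11 and Cxcr3 (101731535 to 101734269, minus) on the X chromosome. None shares an exonic base with another gene on its own strand. On the other strand Cx3cr1 meets Gm33858 and Cxcr5 meets Bcl9l. The Cxcr3 promoter window, set from the RefSeq start, partly overlaps the gene span given here, and its Runx core lies in the overlapping part. The Ccr2 and Cx3cr1 windows also overlap their gene spans, and those of Cxcr2 and Cxcr6 do so by a few bases.

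The receptors were confined almost wholly to leukocytes. In the 8 epithelial, endothelial and mesenchymal classes together (1310, 1666 and 1653 cells), the highest share of cells above 0 for any of the 9 genes in any library was 0.665%, for Cx3cr1 in FLASH, and club-like cells had none of the 9 in any library. These classes had median totals of 4358, 4397 and 4191 adjusted counts, against 2782 to 2936 in neutrophil-like cells. The pooled shares are given for comparison with those that follow. Free RNA was not measured, and where the few positive cells of these classes come from was not tested. Single classes reached more, up to 5 of 125 FLASH AT1-like cells and 2 of 69 CONV AsiDNA smooth muscle and pericyte-like cells for Cx3cr1. Most cells carried few receptors at once: 31.4%, 30.4% and 33.4% of all cells had none of the 9, and 11.3%, 13.8% and 12.1% had 3 or more. Neutrophil-like cells carried the most, with 3 or more in 61.7%, 63.9% and 61.4%, followed among the classes with at least 20 cells in every library by gamma delta T-like cells at 38.1%, 27.1% and 28.6%.

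**Figure D1:**
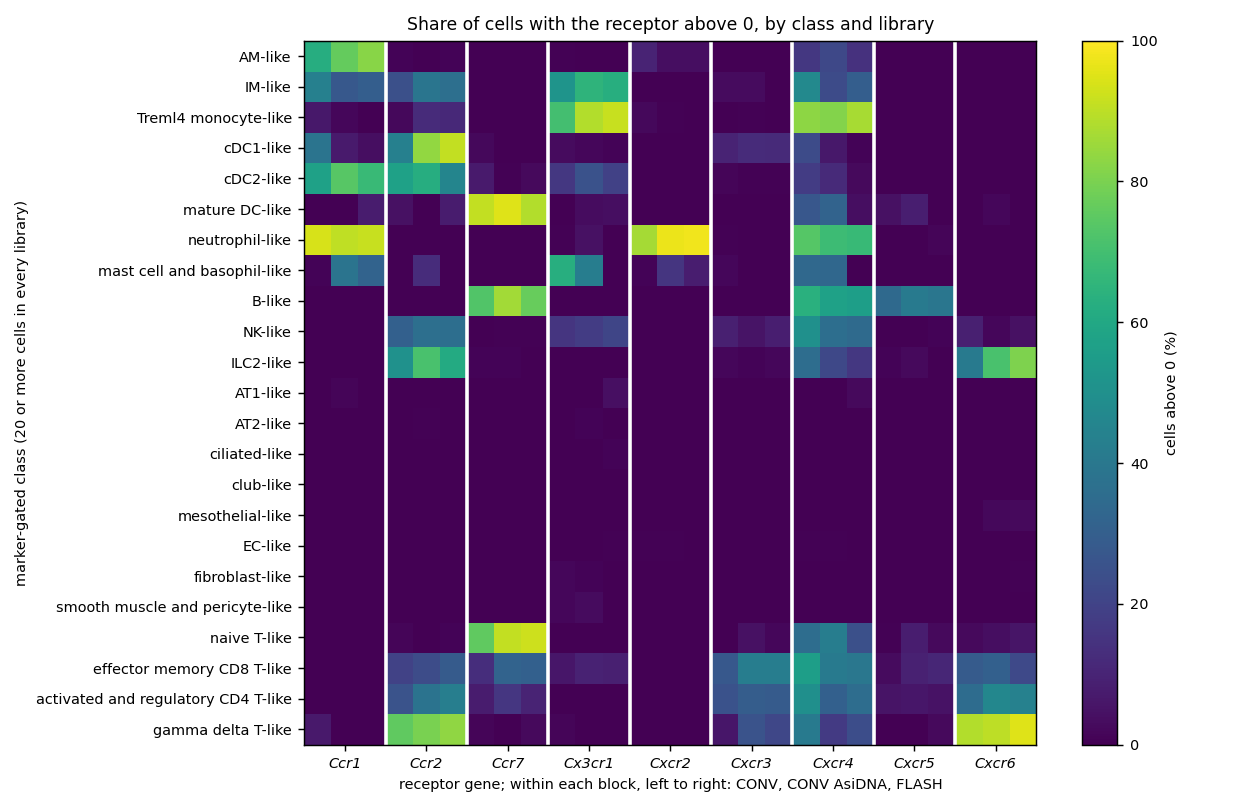
Share of cells above 0 (colour, %) for each of the 9 receptor genes in the 23 classes with at least 20 cells in every library, with 3 columns per gene for CONV, CONV AsiDNA and FLASH from left to right. The leukocyte rows carry the signal, Cxcr4 fills the most rows, and the 8 epithelial, endothelial and mesenchymal rows stay near 0.

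Cxcr2, the receptor for the neutrophil-attracting chemokines Cxcl1 and Cxcl2, was restricted to few classes. It was listed at 0 in every library in 21 of 26 classes, and neutrophil-like cells made up 69.3%, 88.4% and 93.4% of all Cxcr2-positive cells in CONV, CONV AsiDNA and FLASH. Within them, 86.5% of CONV cells (230 of 266, interval 81.8 to 90.3), 97.1% of CONV AsiDNA cells (304 of 313, 94.6 to 98.7) and 98.0% of FLASH cells (297 of 303, 95.7 to 99.3) were above 0. The CONV share was below both others with intervals that did not meet, and the gap was wider in the amount per cell than in the share.
Levels were 1202, 2383 and 2552 CPM in that order. The log2 ratio of CONV, taken after adding 10 CPM to each level, was -0.98 against CONV AsiDNA and -1.08 against FLASH. The median neutrophil-like cell held 3 Cxcr2 adjusted counts in CONV and 7 in each of the others, and 5 or more were found in 28.2%, 74.4% and 76.2% of cells. Median totals of these cells were 2782, 2911 and 2936. The class spans 2 clusters, a large one led by Stfa2l1, S100a9 and S100a8 and a small one led by Ngp and Camp, genes of immature granules. In the large cluster alone Cxcr2 stood at 1214, 2653 and 2796 CPM, and in the small one, with 13, 46 and 46 cells, at 1031, 1442 and 1675 CPM, so the CONV level was lowest in both. By share CONV was lowest in the large cluster (85.8%, 98.5% and 99.2%) but not in the small one (13 of 13, 43 of 46 and 43 of 46 cells). Mast cell and basophil-like cells had Cxcr2 in 1 of 115, 12 of 78 and 2 of 25 cells.

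**Figure D2:**
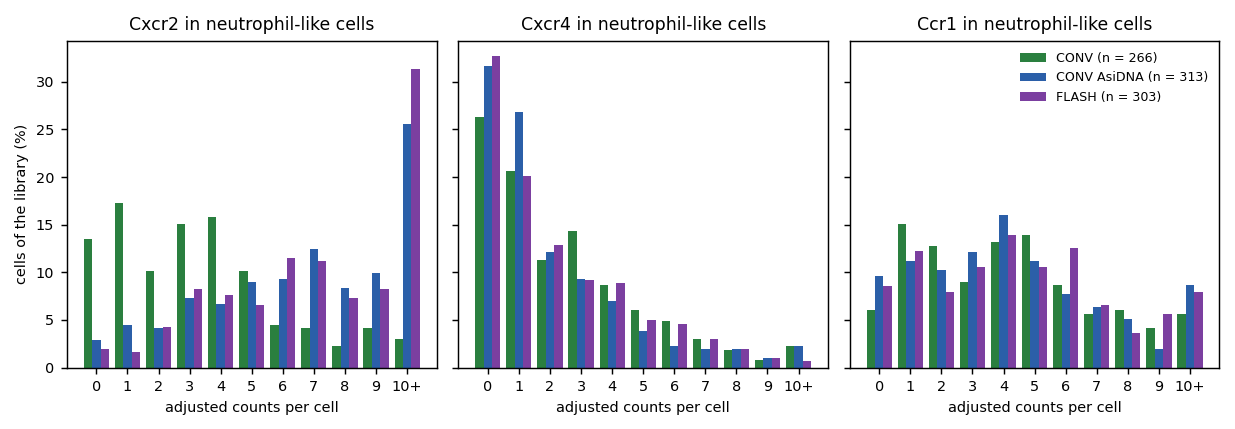
Distribution of adjusted counts per cell (x axis; 10+ pools 10 or more) for Cxcr2, Cxcr4 and Ccr1 in neutrophil-like cells, as % of the 266 CONV, 313 CONV AsiDNA and 303 FLASH cells. The CONV bars for Cxcr2 sit to the left, with a median of 3 against 7 in both other libraries, while the Ccr1 bars of the 3 libraries share a median of 4.

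Ccr1, which binds Ccl3 and Ccl5 among other inflammatory chemokines, was highest in the same neutrophil-like cells. There 94.0%, 90.4% and 91.4% of cells were above 0 and levels were 1531, 1423 and 1523 CPM, values that lay close together. Alveolar macrophage (AM)-like cells, which live in the airspace, were nonetheless the largest group of Ccr1-positive cells, at 52.2%, 44.4% and 44.0% of them. Their share above 0 was 62.5% in CONV (606 of 970, interval 59.3 to 65.5), 76.3% in CONV AsiDNA (503 of 659, 72.9 to 79.5) and 82.3% in FLASH (395 of 480, 78.6 to 85.6), and their levels were 274, 401 and 450 CPM.
AM-like cells also split into clusters that the libraries filled unequally. A cluster led by Gpnmb held 781 CONV, 76 CONV AsiDNA and 48 FLASH AM-like cells, and a cluster led by Cidec and Krt79 held 174, 565 and 416. Ccr1 stood at 253, 279 and 372 CPM in the former and at 361, 425 and 467 CPM in the latter, so CONV was lowest within each cluster, by less than in the whole class. Cxcr2 was above 0 in 10.1% of CONV AM-like cells (98 of 970) and in 3.64% and 3.75% of the others, with levels of 33.6, 12.6 and 17.3 CPM. Within the Cidec-led cluster those shares were 16.7%, 3.72% and 3.12%, and within the Gpnmb-led cluster 8.83%, 2.63% and 10.4%, so the order did not hold in the latter.
In interstitial macrophage (IM)-like cells, which lie in the tissue between airspace and vessel, the order was the other way round. Ccr1 was above 0 in 43.6% of CONV cells (199 of 456), 27.7% of CONV AsiDNA cells (117 of 422) and 29.7% of FLASH cells (96 of 323), at 272, 177 and 176 CPM. Within the cluster led by C1qa and C1qb the levels were 186, 102 and 82.1 CPM, and within the cluster led by Folr2 and Cd209f they were 397, 301 and 320 CPM. In the Gpnmb-led cluster, with 69, 16 and 10 IM-like cells, they were 418, 464 and 391 CPM, so CONV was not highest there, and 72.5% of its 69 CONV cells were above 0. A conventional dendritic cell type, cDC2-like, also carried Ccr1, in 57.4%, 74.0% and 67.9% of cells. Classical monocyte-like cells had it in 8 of 18, 19 of 88 and 7 of 64 cells, and plasmacytoid dendritic (pDC)-like cells in 1 of 4, 2 of 31 and 0 of 54.

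Ccr1 in cDC1-like and in mast cell and basophil-like cells gave large ratios. cDC1-like cells stood at 202, 38.5 and 14.2 CPM, so the log2 ratio of CONV was 2.13 against CONV AsiDNA and 3.13 against FLASH. Of the 101 CONV cells, only 44 also lay in the cluster led by Xcr1, the receptor that defines cDC1 cells, and among these 0 were above 0 for Ccr1, as were 0 of 141 in CONV AsiDNA and 3 of 108 in FLASH. The high CONV value therefore sat in the cells of the Gpnmb-led cluster, of which 68.5% (37 of 54) were above 0.
In mast cell and basophil-like cells Ccr1 was above 0 in 1 of 115 CONV cells, 30 of 78 CONV AsiDNA cells and 8 of 25 FLASH cells, at 8.42, 249 and 256 CPM, log2 ratios of -3.82 and -3.85. Mcpt8, a basophil protease, was above 0 in 8.70%, 46.2% and 76.0% of those cells, while Cma1, a mast cell protease, was above 0 in 94.8%, 66.7% and 24%. Ccr1 was found in 69.4% of the Mcpt8-positive and 11.9% of the Mcpt8-negative CONV AsiDNA cells, and among Mcpt8-positive cells in 1 of 10, 25 of 36 and 7 of 19. Cx3cr1 was above 0 in 62.6% (72 of 115), 42.3% (33 of 78) and 0 of 25 cells of the class. It did not follow the same division: it was found in 5 of 10, 14 of 36 and 0 of 19 Mcpt8-positive cells and in 67 of 105, 19 of 42 and 0 of 6 Mcpt8-negative cells.

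Cx3cr1, the receptor for the membrane-bound chemokine Cx3cl1, led in Treml4 monocyte-like cells, the patrolling monocytes. There 70.2% of CONV cells (33 of 47, interval 55.1 to 82.7), 88.7% of CONV AsiDNA cells (211 of 238, 83.9 to 92.4) and 91.8% of FLASH cells (312 of 340, 88.3 to 94.5) were above 0, at 672, 902 and 948 CPM. Where these cells also lay in the cluster of that name the shares were 76.7% (33 of 43, 61.4 to 88.2), 89.7% (210 of 234, 85.1 to 93.3) and 92.0% (311 of 338, 88.6 to 94.7), and the CONV and CONV AsiDNA intervals overlap. IM-like cells came next by mean level over the libraries among classes with at least 20 cells everywhere, with 51.8%, 65.2% and 62.5% of cells above 0 and levels of 324, 581 and 565 CPM. In CONV alone, mast cell and basophil-like cells were higher than IM-like cells, at 612 CPM and 62.6% of cells. CONV was lowest in both Treml4 monocyte-like and IM-like cells. The same held for NK-like cells (88.3, 138 and 182 CPM), cDC2-like cells (57.0, 113 and 83.7 CPM) and effector memory CD8 T-like cells (31.1, 52.9 and 44.5 CPM).
Thus in 5 of the 5 classes in which both ratios could be formed the CONV level of Cx3cr1 was the lowest of the 3, none by 2-fold, where over all genes 39.4% of gene and class combinations had CONV lowest. Both ratios rest on the same CONV mouse. In cDC2-like cells that also lay in the cDC2 cluster the levels were 32.0, 99.9 and 64.2 CPM, which is past 2-fold against CONV AsiDNA. A pair of classes left out because another library was listed at 0 ran the other way, with CONV highest: mast cell and basophil-like cells at 612, 394 and 0 CPM and AM-like cells at 4.8, 0 and 0 CPM. Neutrophil-like cells, left out because FLASH was listed at 0, stood at 5.31, 32.3 and 0 CPM, so CONV was not the lowest there either. With Leiden clusters in place of the gate CONV was lowest in 5 of 7 classes, and with no minimum sum in 5 of 6. The count was 5 of 5 under the other alternatives tried. In IM-like cells part of the difference lay in the 69 CONV cells of the Gpnmb-led cluster, of which 8.70% were above 0: within the C1qa-led cluster the levels were 403, 698 and 683 CPM, and within the Folr2-led cluster 345, 398 and 376 CPM. Classical monocyte-like cells had Cx3cr1 in 11 of 18, 74 of 88 and 46 of 64 cells. IM-like cells made up 56.6%, 35.8% and 29.1% of all Cx3cr1-positive cells and Treml4 monocyte-like cells 7.91%, 27.4% and 44.9%, so the former were the larger group in CONV and CONV AsiDNA and the latter in FLASH.

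Ccr2, which takes inflammatory monocytes into tissue along Ccl2, had its highest levels in classical monocyte-like cells, at 1273 CPM in 18 CONV cells, 1607 CPM in 88 CONV AsiDNA cells and 1493 CPM in 64 FLASH cells. This class rests on the gate alone: no cluster took its name, and 146 of its cells lay in the Treml4 monocyte-like cluster. Among classes with at least 20 cells in every library it had its highest mean over the libraries in gamma delta T-like cells, at 818, 722 and 812 CPM, with 75.5% (111 of 147, interval 67.7 to 82.2), 80.0% (56 of 70, 68.7 to 88.6) and 83.3% (35 of 42, 68.6 to 93.0) of cells above 0. The 3 intervals overlap, and the order of the libraries was not the same by share and by level. cDC1-like cells, at 339, 676 and 824 CPM, overlapped this range and were the higher in FLASH.
In contrast, Treml4 monocyte-like cells had little Ccr2, in 2.13% of CONV (1 of 47), 12.2% of CONV AsiDNA (29 of 238) and 11.5% of FLASH cells (39 of 340). The log2 ratios were -2.49 and -1.98, but the CONV level of 11.9 CPM came from 1 positive cell, and with Leiden clusters in place of the gate the latter ratio was 0.52. cDC1-like cells showed 43.6%, 84.0% and 90.8% above 0; in those that also lay in the Xcr1-led cluster the shares were 84.1% (37 of 44), 89.4% (126 of 141) and 90.7% (98 of 108), with intervals that overlap. Activated and regulatory CD4 T-like cells had Ccr2 in 25.7% of CONV (118 of 459, 21.8 to 30), 38.2% of CONV AsiDNA (120 of 314, 32.8 to 43.8) and 42.6% of FLASH cells (145 of 340, 37.3 to 48.1), at 177, 305 and 373 CPM. The log2 ratios were -0.75 and -1.04, and the latter was -0.94 when scaled by the median gene ratio. ILC2-like cells, innate lymphocytes that make type 2 cytokines, had it in 50.4%, 71.2% and 61.3%, and NK-like cells in 30.8%, 36.6% and 36.0%. The remaining classes with Ccr2 were cDC2-like (57.4%, 62.3% and 45.5%), IM-like (24.6%, 38.9% and 36.5%), effector memory CD8 T-like (19.9%, 23.1% and 28.7%), pDC-like (1 of 4, 11 of 31 and 30 of 54 cells) and, in CONV AsiDNA alone, mast cell and basophil-like cells (10 of 78).

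**Figure D3:**
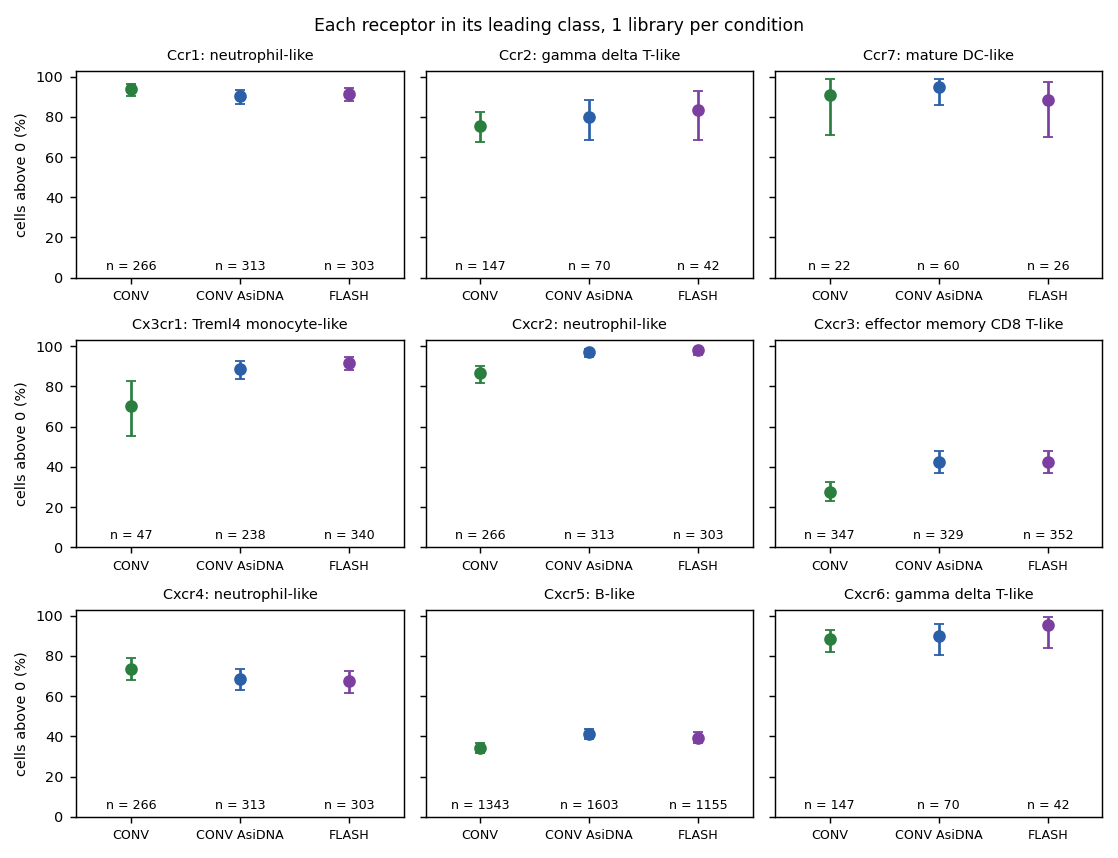
Share of cells above 0 (y axis, %, with exact 95% binomial intervals that cover the sampling of cells) for each receptor in the class with its highest mean level, 1 library per condition, with the number of cells under each point. The CONV interval lies below both others for Cxcr2 in neutrophil-like cells, Cx3cr1 in Treml4 monocyte-like cells (not from CONV AsiDNA in the cells where gate and cluster gave the same class) and Cxcr3 in effector memory CD8 T-like cells; for Cxcr5 in B-like cells it lies below that of CONV AsiDNA, and in the remaining panels the 3 intervals overlap.

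Ccr7, the lymph node homing receptor, led in mature DC-like cells, where 90.9% of CONV (20 of 22), 95% of CONV AsiDNA (57 of 60) and 88.5% of FLASH cells (23 of 26) were above 0, at 5401, 4832 and 3455 CPM. With so few cells the intervals (70.8 to 98.9, 86.1 to 99.0 and 69.8 to 97.6) overlap throughout. By number, B-like cells held most of the Ccr7-positive cells, 72.9%, 77.5% and 62.4% of them.
In B-like cells Ccr7 was above 0 in 73.0% of CONV (980 of 1343, 70.5 to 75.3), 86.1% of CONV AsiDNA (1380 of 1603, 84.3 to 87.7) and 76.9% of FLASH cells (888 of 1155, 74.3 to 79.3), at 833, 1248 and 904 CPM. CONV AsiDNA was the highest here, in the cluster led by Ighd as well (863, 1335 and 998 CPM) and in the cluster led by Iglc1 and Spib (717, 1188 and 848 CPM). In naive T-like cells the shares were 75.7% (199 of 263, 70.0 to 80.7), 90.6% (126 of 139, 84.5 to 94.9) and 92.5% (271 of 293, 88.9 to 95.2), so that CONV was the lowest there, at 951, 1371 and 1255 CPM.
Effector memory CD8 T-like cells were lower in all 3 libraries, with 13.3% of CONV (46 of 347, 9.87 to 17.3), 31.9% of CONV AsiDNA (105 of 329, 26.9 to 37.3) and 30.7% of FLASH cells (108 of 352, 25.9 to 35.8) above 0, and activated and regulatory CD4 T-like cells had it in 7.63%, 15.9% and 10.0%. The markers of the effector memory CD8 T-like class include Cd8a and Cd8b1, so its name does not exclude CD8 cells of other states. A cluster led by Dapl1 and Lef1, with Cd8a and Cd8b1 among its leading genes, held 332, 222 and 424 cells. Neither this class nor the other T subsets were divided by cluster, and how far their make-up differed between libraries was not tested. In all, CONV had the lowest Ccr7 level in 4 of 6 classes, none by 2-fold, where 39.4% of all gene and class combinations had CONV lowest. The cDC2-like values of 101, 1.08 and 112 CPM gave log2 ratios of 3.32 (CONV against CONV AsiDNA) and -3.46 (CONV AsiDNA against FLASH), but in cells that also lay in the cDC2 cluster Ccr7 was above 0 in 3 of 51, 1 of 174 and 0 of 129 cells.

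Cxcr5 brings B cells into follicles along Cxcl13, and B-like cells made up 90.6%, 88.1% and 84.1% of its positive cells. It was above 0 in 34.3% of CONV (461 of 1343, 31.8 to 36.9), 41% of CONV AsiDNA (658 of 1603, 38.6 to 43.5) and 39.3% of FLASH B-like cells (454 of 1155, 36.5 to 42.2), at 171, 207 and 183 CPM. By cluster, 1114, 726 and 489 cells lay in the Ighd-led cluster, where the shares were 32.2%, 34.4% and 33.5%, and 226, 874 and 661 cells lay in the Iglc1-led cluster, where they were 44.2%, 46.7% and 43.6%. Within each cluster the intervals of the 3 libraries overlap. Ccr7 was found at like shares in Cxcr5-positive and Cxcr5-negative B-like cells (75.9% against 71.4% in CONV, 87.1% against 85.4% in CONV AsiDNA, 78.6% against 75.7% in FLASH). Effector memory CD8 T-like cells had Cxcr5 in 2.88%, 9.12% and 10.8%, at 10.7, 29.5 and 36.1 CPM, a log2 ratio of -1.16 between CONV and FLASH. These CD8 values were not divided by cluster.

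Cxcr3, which draws effector T cells towards the interferon-induced chemokines Cxcl9 and Cxcl10, had its highest mean over the libraries in effector memory CD8 T-like cells. It was above 0 in 27.7% of CONV (96 of 347, 23.0 to 32.7), 42.6% of CONV AsiDNA (140 of 329, 37.1 to 48.1) and 42.3% of FLASH cells (149 of 352, 37.1 to 47.7), at 108, 198 and 196 CPM. The CONV share stood clear of both others while these lay together. The class may hold CD8 cells of several states and was not divided by cluster. After every cell was thinned to 1000 adjusted counts the shares were 9.22%, 16.4% and 17.6%, with CONV again the lowest.
Gamma delta T-like cells had Cxcr3 in 6.12% of CONV (9 of 147, 2.84 to 11.3), 25.7% of CONV AsiDNA (18 of 70, 16 to 37.6) and 21.4% of FLASH cells (9 of 42, 10.3 to 36.8), a log2 ratio of -1.72 and -1.18 from 40 and 24 adjusted counts in all. In activated and regulatory CD4 T-like cells, which were higher than the CD8 T-like cells in CONV, the levels were 124, 159 and 163 CPM and the shares, 25.1%, 29.6% and 28.5%, had overlapping intervals, and so did those of NK-like cells (8.97%, 5.17% and 8.56%). Fewer of the NK-like cells that also lay in the NK cluster had Cxcr3, at 4.69% (3 of 64), 2.24% (6 of 268) and 3.52% (7 of 199). The pDC-like class had it in 2 of 4, 8 of 31 and 23 of 54, and cDC1-like cells in 9.90%, 12.2% and 11.9%. In the cDC1-like cells of the Xcr1-led cluster the shares were 22.7% (10 of 44), 13.5% (19 of 141) and 12% (13 of 108), so CONV turned from lowest to highest, with intervals that overlap; the 54 CONV cells of the Gpnmb-led cluster had none.

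Cxcr6, the receptor for Cxcl16 kept by resident lymphocytes, led in gamma delta T-like cells, with 88.4% of CONV (130 of 147, 82.1 to 93.1), 90.0% of CONV AsiDNA (63 of 70, 80.5 to 95.9) and 95.2% of FLASH cells (40 of 42, 83.8 to 99.4) above 0. Levels were 1125, 1034 and 908 CPM, and the intervals of the shares overlap. ILC2-like cells stood apart by library: Cxcr6 was above 0 in 41% of CONV (48 of 117, 32.0 to 50.5), 71.2% of CONV AsiDNA (79 of 111, 61.8 to 79.4) and 80.6% of FLASH cells (50 of 62, 68.6 to 89.6), at 270, 634 and 673 CPM. The log2 ratios were -1.20 and -1.29, the former -0.97 when scaled by the median gene ratio, and the shares were 39.1%, 73.3% and 81.0% where gate and cluster gave the same class.
Activated and regulatory CD4 T-like cells lay between, at 35.3% of CONV (162 of 459, 30.9 to 39.9), 46.2% of CONV AsiDNA (145 of 314, 40.6 to 51.9) and 44.1% of FLASH cells (150 of 340, 38.8 to 49.6), with levels of 243, 419 and 434 CPM. Cxcr6 and Ccr7 seldom met in the same one of these cells: 1.85%, 2.07% and 1.33% of Cxcr6-positive cells had Ccr7, against 10.8%, 27.8% and 16.8% of Cxcr6-negative cells. In ILC2-like cells Cxcr6 and Ccr2 were found together in 23.1%, 58.6% and 51.6% of cells. NK-like cells had little Cxcr6, at 48.6, 17.8 and 36.8 CPM, and in cells that also lay in the NK cluster it was above 0 in 3 of 64, 0 of 268 and 1 of 199. Effector memory CD8 T-like cells had it in 28.8%, 30.7% and 22.2%.

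**Figure D4:**
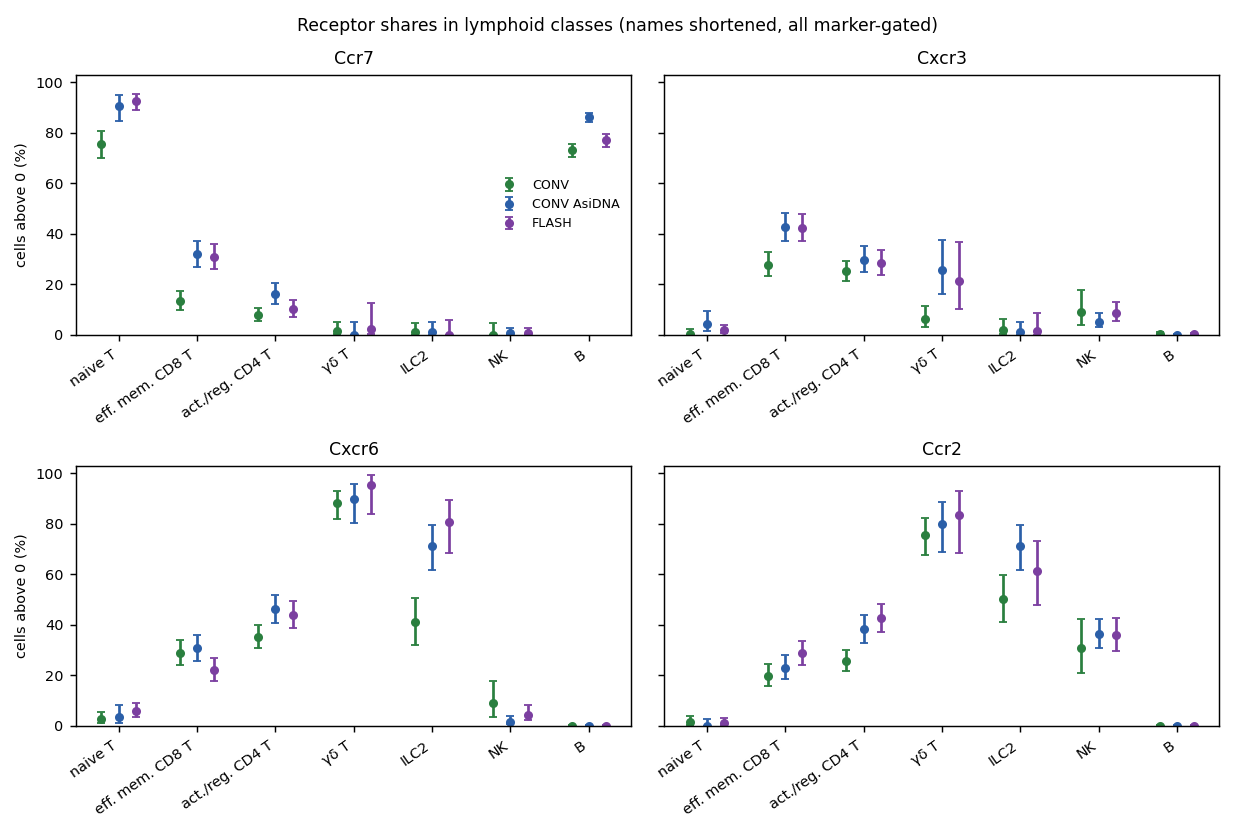
Share of cells above 0 (y axis, %, with exact 95% binomial intervals) for Ccr7, Cxcr3, Cxcr6 and Ccr2 in 7 lymphoid classes, coloured by library. Naive T-like and B-like cells carry Ccr7, gamma delta T-like and ILC2-like cells carry Cxcr6 and Ccr2, and the CONV points lie lowest for Cxcr6 in ILC2-like cells and for Cxcr3 in effector memory CD8 T-like and gamma delta T-like cells.

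Cxcr4, the receptor for Cxcl12 that holds leukocytes in marrow and tissue, was the broadest of the 9. It was above 0 in at least 10% of cells of some library in 18 of 26 classes and in 36.0%, 31.4% and 30.1% of all cells. Among classes with at least 20 cells everywhere, neutrophil-like cells had the highest mean level, at 885, 662 and 700 CPM. There 73.7% of CONV (196 of 266, 68.0 to 78.9), 68.4% of CONV AsiDNA (214 of 313, 62.9 to 73.5) and 67.3% of FLASH cells (204 of 303, 61.7 to 72.6) were above 0. Within the Stfa2l1-led cluster these values drew closer, at 939, 812 and 868 CPM and 75.5%, 75% and 77.0% of cells. Treml4 monocyte-like cells were next by mean level among these classes, at 803, 651 and 618 CPM, and the ranges of both classes overlap. By share they were above the neutrophil-like cells in every library, at 83.0%, 81.5% and 87.1%.
B-like cells had Cxcr4 in 63.6% of CONV (854 of 1343, 61.0 to 66.2), 57.3% of CONV AsiDNA (919 of 1603, 54.9 to 59.8) and 55.9% of FLASH cells (646 of 1155, 53.0 to 58.8), at 493, 386 and 337 CPM. CONV was the highest in both B-cell clusters, at 510.5, 404 and 367 CPM in the Ighd-led cluster and 423, 373 and 317 CPM in the Iglc1-led cluster. B-like cells made up 37.2%, 41.9% and 34.3% of the cells with Cxcr4.
Several classes of T cells and innate lymphocytes also had their highest level in CONV. Activated and regulatory CD4 T-like cells had Cxcr4 in 49.7% (228 of 459, 45 to 54.3), 30.6% (96 of 314, 25.5 to 36.0) and 35.9% (122 of 340, 30.8 to 41.2), at 323, 163 and 168 CPM. Effector memory CD8 T-like cells had it in 55.9% (194 of 347), 41% (135 of 329) and 39.8% (140 of 352), at 308, 201 and 190 CPM. In both classes the CONV interval lay above those of the other libraries.
ILC2-like cells (211, 84.5 and 57.7 CPM) and gamma delta T-like cells (218, 84.4 and 68.8 CPM) passed 2-fold against both libraries, with log2 ratios of 1.23 and 1.71 in the former and 1.27 and 1.53 in the latter. IM-like cells, at 209, 87.6 and 110 CPM, did so against CONV AsiDNA only (1.16, and 0.86 against FLASH), and CONV was the highest within both the C1qa-led cluster (251, 114 and 144 CPM) and the Folr2-led cluster (155, 21.4 and 47.3 CPM), but not in the Gpnmb-led one (130, 146 and 137 CPM in 69, 16 and 10 cells). NK-like cells stood at 322, 210 and 207 CPM and naive T-like cells at 175, 174 and 94.1 CPM. In the latter CONV and CONV AsiDNA were level, and by share CONV AsiDNA was the highest (94 of 263, 59 of 139 and 71 of 293 cells, or 35.7%, 42.4% and 24.2%). In AM-like cells, at 40.0, 54 and 33.8 CPM, CONV was not the highest.
The dendritic classes held less. cDC1-like cells stood at 64.5, 17.1 and 2.03 CPM, with 1 of 109 FLASH cells above 0, and at 48.1, 12.6 and 2.05 CPM where they also lay in the Xcr1-led cluster. cDC2-like cells stood at 70.4, 32.3 and 7.47 CPM. Where they also lay in the cDC2 cluster they stood at 54.9, 29.7 and 0 CPM, with 0 of 129 FLASH cells above 0. Mature DC-like cells stood at 76.2, 133 and 18.2 CPM from 6, 19 and 1 positive cells. Of pDC-like cells 2 of 4, 10 of 31 and 14 of 54 had Cxcr4, of classical monocyte-like cells 8 of 18, 42 of 88 and 35 of 64, and of mast cell and basophil-like cells 39 of 115, 26 of 78 and 0 of 25. Plasma cell-like cells, 8 in all, were too few to describe.

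**Figure D5:**
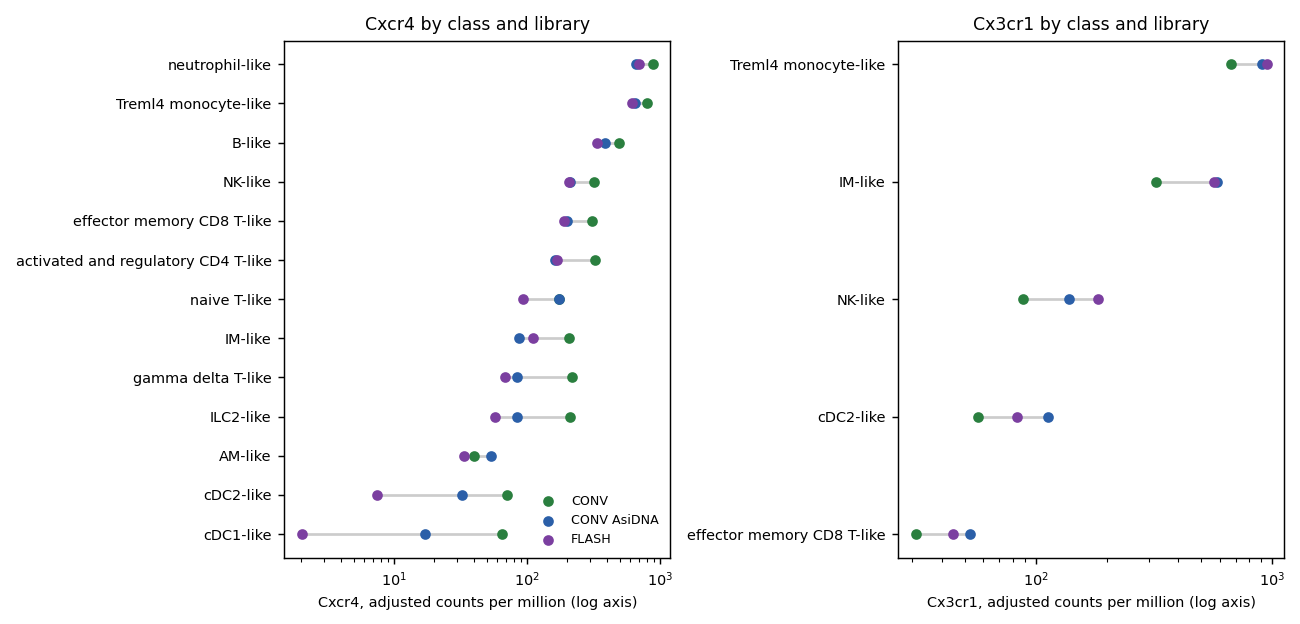
Level of Cxcr4 (left) and Cx3cr1 (right) in adjusted CPM, on a log axis, in each class where CONV could be compared with both other libraries; each point is 1 library and the grey line spans the 3. The CONV point is the rightmost for Cxcr4 in 12 of 13 classes, level with CONV AsiDNA in naive T-like cells, and the leftmost for Cx3cr1 in 5 of 5. Classes listed at 0 in a library are not drawn, among them mast cell and basophil-like cells (both genes) and AM-like cells (Cx3cr1), where CONV was highest. Neutrophil-like cells for Cx3cr1 and mature DC-like cells for Cxcr4 are not drawn either, and in both CONV AsiDNA was highest.

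The CONV level of Cxcr4 was thus the highest of the 3 in 12 of 13 classes, where over all genes 37.9% of gene and class combinations had CONV highest. The 12 include naive T-like cells, where CONV and CONV AsiDNA were level (175 and 174 CPM). CONV was at least 2-fold above both others in 3 classes (cDC1-like, ILC2-like and gamma delta T-like cells). Of all genes tested in these classes, 1213 of 5369, 126 of 4114 and 270 of 4388 were at least 2-fold higher in CONV than in CONV AsiDNA. Against FLASH the numbers were 1166 of 4602, 147 of 3301 and 345 of 4008. Mast cell and basophil-like cells, left out because FLASH was listed at 0, stood at 227, 199 and 0 CPM. Mature DC-like cells, left out because CONV and FLASH together held too few adjusted counts, ran the other way, with CONV below CONV AsiDNA. All 13 rest on the same CONV mouse, and the classes share its dissociation and library. The count stayed at 12 of 13 under scaling by the median gene ratio, and was 10 of 12 with clusters in place of the gate and 10 of 11 where gate and cluster gave the same class. The summed level of 12 immediate-early and stress genes that respond to the handling of cells (Fos, Fosb, Jun, Junb, Jund, Dusp1, Ier2, Egr1, Atf3, Zfp36, Hspa1a and Hspa1b, chosen after the Cxcr4 values were seen) ranged from 2518 to 21995 CPM over these 13 classes in CONV, from 2520 to 20732 in CONV AsiDNA and from 2523 to 23466 in FLASH, and CONV was the highest in 4 classes and the lowest in 7. The single genes differed: Jund had CONV highest in 3 and lowest in 10 of the 13 classes and Junb in 5 and 8, whereas Dusp1 had it highest in 6 and lowest in 2, Fosb in 7 and 5 and Egr1 in 4 and 2. Outside the 13, the sum in mast cell and basophil-like cells was 89781, 44557 and 41817 CPM. CONV was also highest in EC-like, AT1-like, AT2-like and club-like cells. It was lowest in classical monocyte-like, mature DC-like, fibroblast-like and smooth muscle and pericyte-like cells. Whether handling had a part in the Cxcr4 values was not tested.

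Counted over the 9 receptors and all classes with enough cells, 7 of 62 comparisons were at least 2-fold higher in CONV than in CONV AsiDNA and 6 were at least 2-fold lower, where 4.26% and 4.54% of all gene and class combinations were. Set against FLASH, CONV was higher in 5 of 56 and lower in 8, beside 5.24% and 4.46%. CONV AsiDNA was higher than FLASH in 4 of 64 and lower in 1, beside 2.39% and 1.47%. A further 3, 4 and 4 combinations were listed at 0 in 1 of the libraries and have no ratio. Of the 13 that passed between CONV and CONV AsiDNA, 4 were Cxcr4 in IM-like, cDC1-like, ILC2-like and gamma delta T-like cells, and those not yet given were Cx3cr1 in neutrophil-like cells (5.31 and 32.3 CPM) and Cxcr2 in mast cell and basophil-like cells (2.81 and 83.1 CPM). In cDC1-like cells Ccr2 was lower in CONV than in FLASH by a log2 ratio of -1.26, which was -0.39 where gate and cluster gave the same class. The median log2 ratio over the receptors was -0.26, -0.10 and 0.03, beside -0.03, -0.003 and 0.03 over all genes. Where gate and cluster gave the same class the counts were smaller. CONV was then higher in 3 and lower in 5 of 53 comparisons with CONV AsiDNA, and higher in 2 and lower in 6 of 48 with FLASH. CONV AsiDNA was higher than FLASH in 2 of 54 and lower in 0. Over all genes in that setting 3.39% and 4.67%, 4.35% and 4.37%, and 2.23% and 1.37% were higher and lower in the same order.

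Other genes of the chemokine system, from lists chosen with earlier results of these data known, were taken by the same rule. Of 30 ligand genes in the tables, 25 of 120 comparisons were higher and 18 lower in CONV than in CONV AsiDNA, and 33 and 13 of 105 against FLASH. Between CONV AsiDNA and FLASH 27 of 110 were higher and 9 lower, so the ligands passed often in every comparison, beside the shares over all genes given above. Of 20 genes that act behind the receptors, 18 and 17 of 287 were higher and lower than in CONV AsiDNA, and 19 and 17 of 268 against FLASH, while 3 and 4 of 310 passed between CONV AsiDNA and FLASH. Rgs1, which shortens G protein signals after a receptor is engaged, was at least 2-fold higher in CONV than in both others in 6 classes. These were AM-like, Treml4 monocyte-like, cDC1-like, cDC2-like, effector memory CD8 T-like and gamma delta T-like cells. Its levels in gamma delta T-like cells were 1200, 397 and 261 CPM and in effector memory CD8 T-like cells 482, 229 and 230 CPM. Rgs1 was not divided by cluster, and many CONV AM-like and cDC1-like cells lay in the Gpnmb-led cluster. Cxcl2, a ligand of Cxcr2, was higher in CONV in neutrophil-like cells (14558, 5818 and 6299 CPM) and lower in AM-like cells (267, 906 and 1042 CPM). Cxcl16, the ligand of Cxcr6, was higher in CONV AM-like cells (88.4, 16.7 and 26.2 CPM) and lower in CONV EC-like cells (11, 46.8 and 63.3 CPM). Ccl3, a ligand of Ccr1, was lower in CONV AM-like cells (78.8, 199 and 258 CPM). These ligand values of AM-like cells are not divided by cluster, and the libraries filled the AM-like clusters unequally. The remaining genes named by the rule were Ccl6, Cxcl1, Rgs2 and Rgs18, each past 2-fold against both libraries in 2 classes. Cxcl12, the ligand of Cxcr4, was named after its values were seen: EC-like cells had 2306, 973 and 411 CPM, and an EC-like cluster led by Fam167b and Sele held 132, 23 and 1 cells.

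Of 15 further receptors, 13 were found in at least 10% of cells of some class and library, and those reported here follow. Xcr1 was above 0 in 38.6%, 86.5% and 95.4% of cDC1-like cells, Ccr9 in 90.3% and 98.1% of CONV AsiDNA and FLASH pDC-like cells, Ccr8 in 32.5%, 28.8% and 35.5% of ILC2-like cells, and Ccr4 in 12.9%, 17.5% and 20.9% of activated and regulatory CD4 T-like cells. Ccr6 was above 0 in 7.48%, 20.0% and 26.2% of gamma delta T-like cells. Ccrl2, an atypical receptor that does not signal for migration, was above 0 in 72.2%, 45.7% and 44.6% of neutrophil-like cells, at 1677, 576 and 506 CPM. Cxcr1, a relative of Cxcr2, was above 0 in 11% of CONV AM-like cells. Ackr4 reached 18.4% of FLASH mesothelial-like cells, and Ccr10 was found in 1 plasma cell-like cell. Ackr3 and Ackr2, which bind and remove chemokines, were found in endothelial (EC)-like cells (38.7%, 47.2% and 38.3%, and 29.6%, 40.8% and 45.5%), and Cmklr1 in fibroblast-like cells (49.2%, 50.4% and 55.0%).

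Over 73 combinations of class and library, the levels of the receptors on a log2 scale could be set against 12955 other genes. The points share 3 mice and the markers that made the classes, so these correlations are descriptions. The nearest genes were Podnl1, Acsbg1 and Icos for Cxcr6 (Pearson r = 0.98, 0.97 and 0.95), Gm20406, Mirt2 and Nlrp12 for Cxcr2 (0.96, 0.96 and 0.94) and Nlrp3, Cd33 and Lilrb4a for Ccr1 (0.91, 0.89 and 0.86). Cxcr4 was nearest to Stk17b, Gmfg and Rac2 (0.90, 0.89 and 0.89), Cxcr5 to Gm30211, Fam129c and Cd79a (0.88, 0.84 and 0.82), Ccr7 to Gramd3, Il21r and Zc3h12d (0.82, 0.76 and 0.74) and Ccr2 to Mis18a, Nfatc2 and Runx3 (0.81, 0.81 and 0.80). Cxcr3 was nearest to A930006K02Rik, Sla2 and Gna15 (0.80, 0.80 and 0.79) and Cx3cr1 to Rap1gap2, Clec4a1 and Fcer1g (0.79, 0.78 and 0.75). Among the 9 themselves the closest were Cxcr3 with Cxcr6 (0.69), Ccr7 with Cxcr5 (0.68) and Ccr1 with Cxcr2 (0.65).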

How the data were processed

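Single-cell 3′ libraries (10x Genomics, v3.1) of 3 dissociated lungs were processed by the authors with Cell Ranger 6.0.0 against mm10, per the submitters' processing notes and analysed with Seurat in R. The deposited values are on a natural log (ln) scale: back-transformed, they lay within 1e-10 of whole numbers, and totals ran from 1432 to 8462 per cell, so they are treated as adjusted counts. No source at hand says how the authors adjusted them, and raw UMI depth is unknown. Because of this unit no count model was run. Totals were 23908890, 26417388 and 23383510 adjusted counts in CONV, CONV AsiDNA and FLASH. A total of 16, 9 and 17 barcodes recurred between pairs of libraries. A further 4 tables were not used: 3 hold the authors' own fold changes and p-values, and 1 holds counts in 12 sample columns whose names match no sample here.

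Cells with at least 200 genes and at most 20% mitochondrial counts were kept, and each took the class with the largest share of its markers above 0 (at least 3; 283 markers, 23 classes, T cells divided into 4 subsets by at least 2 markers). Cells with many markers of another compartment (5, 13 and 35 cells) were set aside, and no doublet caller was run. Members, markers and lists were chosen with earlier results of these data known, and the naming of clusters was settled after they were seen. Levels are summed adjusted counts per 1000000. A ratio was formed for classes of at least 20 cells in both libraries and genes above 0 in both with at least 20 adjusted counts together, after adding 10 CPM, and called at 2-fold; a gene at 0 in 1 library is listed as such. Named were members in their leading class and where at least 10% of cells were above 0, other receptors by that share (not all are reported here), list genes past 2-fold in CONV against both libraries in 2 or more classes, and the 3 genes most like each member among those with at least 200 adjusted counts. Clusters came from the Leiden method (2000 variable genes, 30 components, 15 neighbours, resolution 1; 34 clusters) in scanpy 1.11.5 under Python 3.11.15. The ratio step was tested on simulated data. Median mitochondrial shares of AM-like cells were 2.10%, 0.217% and 2.37%, and those of neutrophil-like cells were 0 in every library; their part in the results was not tested.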

Additional observations from a re-analysis of the deposited data

Results flagged for a closer look

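Effects in opposite directions under the same contrast drew attention to 3 comparisons, none of which could be tested with 1 mouse per condition. For CONV over CONV AsiDNA, the log2 ratio of Ccr1 was 2.13 in cDC1-like cells and -3.82 in mast cell and basophil-like cells; for CONV over FLASH it was 3.13 and -3.85. Of the CONV cDC1-like cells 54 lay in the Gpnmb-led cluster, and in the Xcr1-led cluster Ccr1 was above 0 in 0 of 44, 0 of 141 and 3 of 108 cells. In the mast cell and basophil-like cells Mcpt8 was above 0 in 8.70%, 46.2% and 76.0%, and among the Mcpt8-positive cells Ccr1 was found in 1 of 10, 25 of 36 and 7 of 19. For CONV over CONV AsiDNA, the log2 ratio of Cxcr6 was 1.07 in NK-like cells and -1.20 in ILC2-like cells; the NK-like value rests on 27 adjusted counts, and 0 of 268 CONV AsiDNA cells had Cxcr6 where gate and cluster gave the same class. No group held enough samples to look for a sample far from the others.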

How the results depend on the processing

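No paired analysis was possible because each condition has 1 mouse, and for the same reason no replicate could be left out. The leading class of every receptor was the same under the 5 alternatives that change which cells a class holds (a gate of 4 markers, clusters, cells of mixed markers kept, a minimum of 500 genes, gate and cluster the same). All 5 called the T subsets by the same markers. Clusters were set only against the T-like class as a whole. For Ccr2, Cxcr3 and Cxcr6, which led in T subsets, and for ratios and counts in T subsets, the alternatives therefore cannot test the subset call. Of 27 shares in leading classes, thinning to 1000 adjusted counts moved 24, as fewer counts per cell must, and no other setting moved any beyond its interval. The 31 ratios past 2-fold kept their direction and call in 261 of the 269 recalculations that could be formed and fell under 2-fold in 7. With clusters, or where gate and cluster gave the same class, only 18 of the 31 could be formed, and with a minimum sum of 50 only 17; Ccr1 in cDC1-like cells, CONV against CONV AsiDNA, is among those lost where gate and cluster gave the same class. The only reversal was Ccr2 in Treml4 monocyte-like cells, CONV over FLASH, which was -1.98 with the gate and 0.52 with Leiden clusters, whose cluster of that name also holds the classical monocyte-like cells. Counts of comparisons past 2-fold moved by over 1.5 times as follows. With clusters in place of the gate, 4 of 56 were higher in CONV than in CONV AsiDNA, beside 3.37% over all genes. In that setting 5 of 55 were lower in CONV than in FLASH, beside 4.38%. Lower in CONV AsiDNA than in FLASH were 0 of 60, beside 1.36%. Where gate and cluster gave the same class, chosen after the data were seen, 3, 2 and 2 were higher in the 3 comparisons in the order of the report and 0 lower in the last. The shares over all genes were 3.39%, 4.35% and 2.23%, and 1.37% in the last. With a minimum sum of 50 adjusted counts 4 of 49 were higher and 3 lower in CONV than in CONV AsiDNA, beside 3.41% and 3.5% over all genes. In that setting 3 of 46 were higher in CONV than in FLASH, beside 4.07%. Higher in CONV AsiDNA than in FLASH were 0 of 49, beside 1.16%. For CONV AsiDNA over FLASH, a prior of 1 CPM gave 4 of 64 lower, no minimum sum gave 7 of 79 higher, and the mean over cells gave 2 of 64 lower. The shares over all genes were 3.33%, 3.13% and 1.7%.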
